A study of Mus musculus with 9 samples.

Results

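The levels of 37 genes of glycolysis, the pentose phosphate pathway and the tricarboxylic acid (TCA) cycle were measured by RNA sequencing in 3 mouse hematopoietic cell lines. The genes were chosen by symbol, as transporters and enzymes of central carbon metabolism, by a rule that uses no measured value. Earlier results of these data were known when the choice was made. They matched 38 of 54347 rows of the count table, since *Aldoa* had 2 rows, and 36 of these rows passed the filter on low counts. The second *Aldoa* row, with 3 to 11 counts a library, and *Eno2*, with 0 to 3, did not.

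Glucose is carried into cells by facilitative transporters, trapped by hexokinases and split by glycolysis into pyruvate, which is either reduced to lactate and exported or taken into mitochondria and fed by the pyruvate dehydrogenase complex into the TCA cycle. A side branch from glucose 6-phosphate, the pentose phosphate pathway, makes NADPH and ribose phosphates. Dividing blood progenitors and leukemic blasts are known for drawing on these routes for energy and for building blocks, and many steps have several isozymes whose genes are used by different tissues.

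The study asked how progenitors survive when the transcription factor PU.1, encoded by *Spi1*, is lowered by deletion of its upstream regulatory element (URE). Hox-WT (genotype WT) and Hox-URE (genotype UREd/d) are progenitor lines made from c-Kit+ bone marrow cells, each of 1 mouse, with and without the element, and both carry a Hoxb8-ER fusion construct that immortalizes them in the presence of estradiol. URE-AML (genotype UREd/d; named B22 in the labels) is an AML blast-like line grown out from the leukemia of a mouse lacking the element. All lines were kept in the same medium with serum, IL-3, IL-6, SCF and estradiol. Each condition was 1 line with 3 libraries, so line and condition cannot be told apart, and p-values measure the spread between libraries, which may be technical because nothing states that they came from separate cultures. The methods give an age only for mice sacrificed for bone marrow, as young adults, and do not tie it to the donors of these lines.

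The 9 libraries held 20331064 to 28588718 counts. *Spi1* had 2791 to 2932 counts in Hox-WT, 0 to 1 in the Hox-URE and 62 to 148 in the URE-AML line, and *Hoxb8* had 1725 to 3481 counts in the Hox lines and 0 in each URE-AML library. The summed level of 5 hematopoietic progenitor markers was 5188 to 8105 CPM (counts scaled to a common library total, with TMM factors) in Hox-WT, 832 to 1314 in the Hox-URE and 446 to 504 in the URE-AML line, and all 5 were called lower in each of the latter lines than they were in Hox-WT. *Kit* and *Myb* were lower but present in all 9 libraries. *Mpo* had 3292 to 5950 CPM in Hox-WT, 2.15 to 10.2 in the Hox-URE and 174 to 212 in the URE-AML line. *Ptprc*, the pan-leukocyte marker CD45, had 0 counts in each Hox-URE library and 0 to 1 in those of URE-AML, and *Cd34* had 0 to 1 in URE-AML. The summed level of 9 neutrophil genes was 2320 to 3160 CPM in Hox-WT, 2607 to 4001 in the Hox-URE and 11078 to 25785 in the URE-AML line, with 0 of 9 called higher and 8 lower between the Hox lines, and 8 and 0 when URE-AML was set against either Hox line; the exception between the Hox lines was *Ctsg*. That of 6 mast cell and basophil genes was 483 to 838, 1613 to 5892 and 31.4 to 62.7 CPM, with 4 of its 5 tested genes called higher and 0 lower between the Hox lines. The sum of 6 monocyte genes was 83.8 to 166, 843 to 946 and 174 to 343 CPM, but 5 of the 6 were called lower between the Hox lines and 1, *Ccr2*, higher, at 840 to 939 CPM in Hox-URE and 10.6 to 18.5 in the other lines. Erythroid and megakaryocyte genes summed to at most 40.7 CPM in each library, and lymphoid genes to 43.3 to 83.7 CPM in the Hox lines and 0.129 to 0.238 in URE-AML. The part of these marker differences in the results below was not tested, and in bulk RNA fewer cells of a type and less RNA per cell cannot be told apart.

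Differences between the Hox lines are given as Hox-URE relative to Hox-WT. A gene was called when its Benjamini-Hochberg adjusted p from the edgeR quasi-likelihood test was under 0.05 and its fold change over 1.5. A stricter test, of whether the change exceeds a fold of 1.5 itself, ended 12 of the 39 calls over the 3 comparisons, each named with its result. Between the Hox lines, 7 of 36 tested rows were called (19.4%), against 37.2% of the 13082 genes tested. *Slc2a3*, *Pfkp*, *Pkm* and *G6pdx* were the 4 called higher (11.1%, against 21.3% of all genes), and *Hk3*, *Pdk1* and *Pdha1* the 3 called lower (8.33%, against 15.9%). In URE-AML relative to Hox-WT, 17 were called (47.2%, against 43.2% of all genes), of which 11 were higher (30.6%, against 23.0%) and 6 lower (16.7%, against 20.2%). In URE-AML relative to Hox-URE, 15 were called (41.7%, against 42.7% of all genes), with 11 higher (30.6%, against 20.3%) and 4 lower (11.1%, against 22.4%). The median log2 fold change of the tested rows was -0.10, 0.34 and 0.23 in the 3 comparisons in this order, each against 0.00 for all genes, and it stayed at these values with *Ldhb*, whose counts were 0 in the Hox lines, set to its bound. With the rows that share most of the sequence of *Eno1* and other genes added to them, described below for *Eno1*, 12 were higher and 5 lower from Hox-WT to URE-AML, and 12 and 3 from Hox-URE to URE-AML, with medians of 0.38 and 0.25. The 3 comparisons share libraries and are not independent of each other. The 38 rows took 2.31 to 2.51% of all counts in Hox-WT, 2.15 to 2.32% in the Hox-URE and 2.80 to 3.03% in the URE-AML line.

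**Figure D1:**
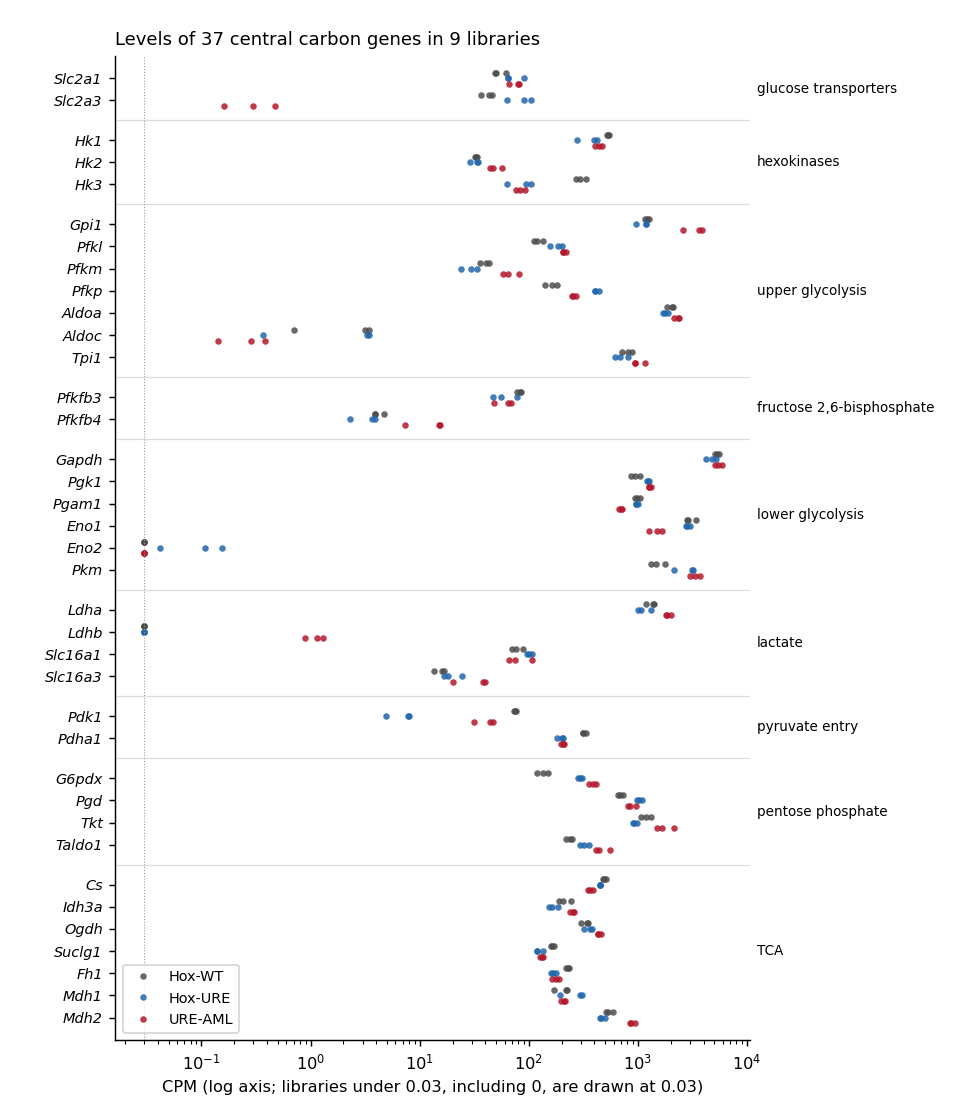
Level of each of the 37 genes in each library, in CPM on a log axis, grouped by role, with counts of 0 drawn at the dotted line on the left. Points are libraries (gray Hox-WT, blue Hox-URE, red URE-AML), and most genes lie within a narrow band across lines, while *Slc2a3*, *Pdk1*, *Hk3*, *Gpi1* and *Eno1* show lines set apart; the *Eno1* row is lower in URE-AML, and its direction turns when its sequence copies are added.

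**Figure D2:**
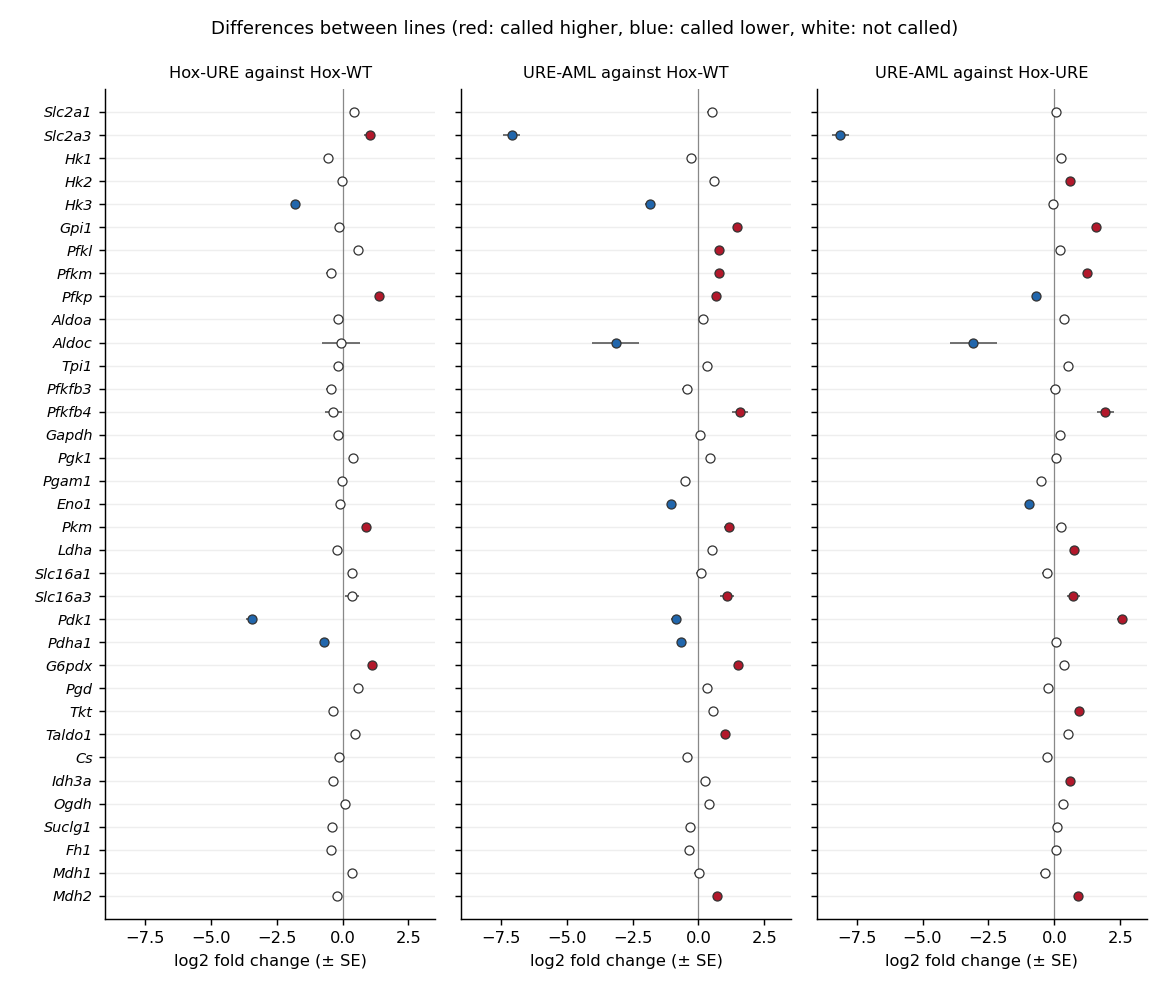
Log2 fold change of each tested gene with its standard error, in 3 panels for the 3 comparisons. Red points were called higher, blue lower and white not called; *Ldhb*, at 0 counts in both Hox lines, and *Eno2*, not tested, are left out, and the blue *Eno1* points turn to higher when its sequence copies are added.

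The promoters of 3 genes whose levels set Hox-WT apart from the lines without the element are shown, each 300 bases from 250 before to 50 after the start of transcription (RefSeq, GRCm38.p6), 5′ to 3′ on the gene's strand. Capitals mark matches, on either strand, to AGGAAGT, a core that PU.1 and other ETS factors are known to bind, and to ACGTG or GCGTG, the core that hypoxia-inducible factors are known to bind. *Pdk1* (chr2:71872974-71873273, plus strand) held 2 matches to the latter and 0 to the former, and a second *Pdk1* window (chr2:71874654-71874953), not shown, held 0 matches to either. *Hk3* (chr13:55021336-55021635, minus strand) held 1 match to each, that to AGGAAGT starting at base 244 of the window. *G6pdx* (chrX:74428831-74429130, minus strand) held 2 matches to ACGTG or GCGTG and 0 to AGGAAGT.
Pdk1: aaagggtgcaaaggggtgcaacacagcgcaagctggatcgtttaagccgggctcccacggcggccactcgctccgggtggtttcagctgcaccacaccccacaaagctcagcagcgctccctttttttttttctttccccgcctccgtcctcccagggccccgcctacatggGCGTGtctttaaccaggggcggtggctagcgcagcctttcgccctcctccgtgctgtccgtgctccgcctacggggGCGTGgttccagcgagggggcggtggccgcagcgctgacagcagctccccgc
Hk3: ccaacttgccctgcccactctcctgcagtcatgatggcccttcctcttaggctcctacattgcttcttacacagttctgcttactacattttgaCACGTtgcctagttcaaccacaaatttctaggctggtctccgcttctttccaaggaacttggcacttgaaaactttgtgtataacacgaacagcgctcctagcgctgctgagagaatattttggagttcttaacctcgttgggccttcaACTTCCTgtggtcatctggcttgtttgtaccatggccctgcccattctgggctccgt
G6pdx: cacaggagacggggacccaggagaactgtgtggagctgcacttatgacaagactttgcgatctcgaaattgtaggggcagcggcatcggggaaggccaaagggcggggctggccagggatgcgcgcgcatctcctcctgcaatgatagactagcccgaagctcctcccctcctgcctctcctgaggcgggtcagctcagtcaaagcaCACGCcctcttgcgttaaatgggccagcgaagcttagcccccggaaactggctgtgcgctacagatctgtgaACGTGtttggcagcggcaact

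Promoters were given for 35 of the 37 genes, in 54 windows; *Slc2a3* and *Idh3a* had none. AGGAAGT was in 5 of the 54 windows (9.26%), against 9.35% of 32851 windows of all genes. ACGTG or GCGTG, searched on both strands, was in 44 (81.5%), against 43.8% of all windows. CACGTG, the E-box that Myc and other factors are known to bind and which itself contains ACGTG, was in 7 (13%), against 7.15%. Some genes had more than 1 window, and a match describes letters and not a bound site. The windows were not matched for base composition, and its part in these shares was not tested.

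Of the 2 glucose transporter genes, *Slc2a3* was called in each comparison and *Slc2a1* in none. *Slc2a3* encodes GLUT3, a high-affinity glucose transporter, and lies at chr6:122727809-122801640 (GRCm38). It stood at 43.2, 46.4 and 36.7 CPM in Hox-WT, at 62.7, 90.6 and 105 in Hox-URE, and at 0.162, 0.476 and 0.300 in URE-AML, where the libraries held 4, 10 and 7 counts. No library of 1 line overlapped with those of another. *Slc2a3* rose 2.05-fold between the Hox lines (log2 1.03 ± 0.20 SE, adjusted p = 0.00153), and in URE-AML it was 136-fold lower than in Hox-WT (log2 -7.09 ± 0.32, adjusted p = 3.56e-08) and 278-fold lower than in Hox-URE (log2 -8.12 ± 0.32, adjusted p = 2e-08).

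*Slc2a1*, the widely used transporter GLUT1, stood at 62.1, 49.1 and 50.4 CPM in Hox-WT, at 90.3, 64.8 and 64.5 in Hox-URE, and at 82.2, 79.4 and 66.4 in URE-AML. All Hox-WT libraries lay below all others. It was not called in any comparison, with log2 differences of 0.44 ± 0.16 in Hox-URE and 0.50 ± 0.16 in URE-AML relative to Hox-WT. Without Hox-WT library 1, the highest of that line, *Slc2a1* was called in URE-AML relative to Hox-WT (log2 0.61), as it was without URE-AML library 3 (0.59). Per kilobase of coding transcript, *Slc2a1* made 57.8% ± 4.04 (SD, n = 3) of the counts of both transporters in Hox-WT, 47.9% ± 11.2 in the Hox-URE and 99.6% ± 0.188 in the URE-AML line. The Hox-URE share rested on unlike libraries, at 60.7, 43.4 and 39.7%, so *Slc2a1* led in library 1 and *Slc2a3* in the others; without library 2 or without library 3, *Slc2a1* led by the line mean. The summed level of the pair was 95.9 ± 9.13 CPM in Hox-WT, 159 ± 9.12 in the Hox-URE and 76.3 ± 8.42 in the URE-AML line.

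Transcripts of hexokinases, which phosphorylate glucose, were fewer in sum in the lines without the element, at 484 ± 94.8 CPM in Hox-URE and 571 ± 25.0 in URE-AML where Hox-WT had 862 ± 38.1. Called among them was *Hk3*, the hexokinase of myeloid cells (chr13:55005985-55021385), whose promoter is shown above. *Hk3* stood at 270, 331 and 297 CPM in Hox-WT, at 62.7, 104 and 93.6 in Hox-URE, and at 83.7, 92.7 and 75.9 in URE-AML. All Hox-WT libraries lay above all others, and the libraries of the other lines overlapped. It fell 3.45-fold in Hox-URE (log2 -1.79 ± 0.18, adjusted p = 1.82e-05) and 3.56-fold in URE-AML (log2 -1.83 ± 0.18, adjusted p = 9.99e-06) relative to Hox-WT, with a log2 difference of -0.05 ± 0.17 between URE-AML and Hox-URE (adjusted p = 0.842).

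*Hk1*, the broadly expressed isozyme, stood at 516, 529 and 543 CPM in Hox-WT, at 278, 394 and 423 in Hox-URE, and at 403, 437 and 472 in URE-AML. Hox-WT lay above both other lines, which overlapped. It was not called: the log2 difference of Hox-URE relative to Hox-WT was -0.54 ± 0.14 (adjusted p = 0.00982), a fold of 1.45. It passed the threshold there without Hox-URE library 2 (log2 -0.61), without Hox-URE library 3 (-0.67) or with library size as the only scaling (-0.65). *Hk2*, an inducible isozyme, stood at 33.0, 33.5 and 32.1 CPM in Hox-WT, at 34.2, 33.8 and 28.8 in Hox-URE, and at 56.7, 46.6 and 44.5 in URE-AML, so that all URE-AML libraries were the highest. It rose 1.53-fold in URE-AML relative to Hox-URE (log2 0.61 ± 0.12, adjusted p = 0.0012), a call lost without Hox-URE library 3 (0.53) or URE-AML library 1 (0.50), and in the stricter test (adjusted p = 0.438). Against Hox-WT, the log2 difference of 0.58 ± 0.12 (adjusted p = 0.00152) lay at the fold threshold and was called in 10 of 21 alternatives. Those included leaving out Hox-WT library 1 (0.59), Hox-WT library 2 (0.60), URE-AML library 2 (0.62) and URE-AML library 3 (0.65).

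Per kilobase, *Hk1* made 76.5% ± 1.55 of the hexokinase counts in Hox-WT, 86.4% ± 1.19 in the Hox-URE and 87.4% ± 1.71 in the URE-AML line. The share of *Hk3* was 21.5% ± 1.57, 10.2% ± 0.940 and 8.39% ± 1.10, and that of *Hk2* 2.01% ± 0.0879, 3.38% ± 1.00 and 4.20% ± 0.814. With the longest transcript as the length, *Hk3* took 41.7% ± 2.25, 22.7% ± 1.83 and 19.1% ± 2.17, so the size of its share depended on the transcript assumed, while *Hk1* led in each line under both lengths.

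**Figure D3:**
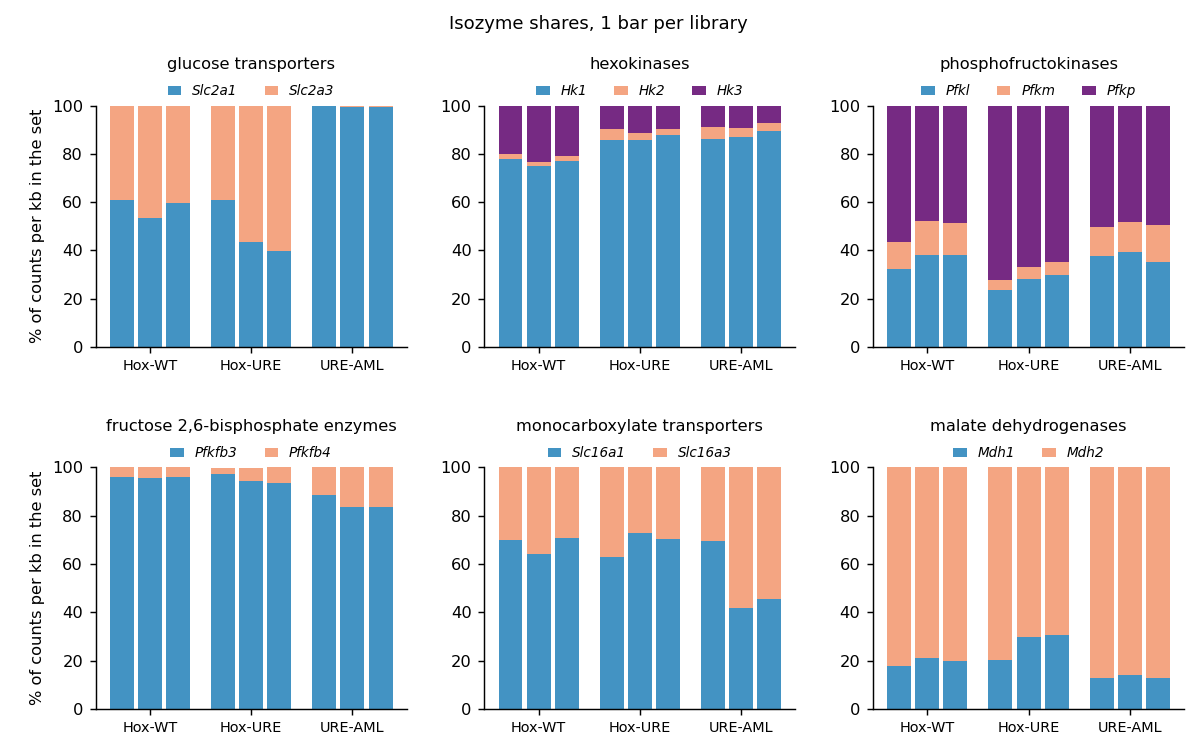
Share of each isozyme in the counts per kilobase of its set, in percent, with 1 bar per library and 6 of the 9 sets. *Slc2a3* (39.3 to 60.3% in the Hox lines) is nearly absent from the URE-AML bars, the *Hk3* band is widest in Hox-WT, the *Pfkp* band in Hox-URE and the *Pfkfb4* band in the URE-AML line.

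Transcripts of upper glycolysis had their largest sum, which was not tested, in URE-AML, with 7193 ± 798 CPM. The sum was 4343 ± 241 for Hox-WT and 4240 ± 148 for Hox-URE. Of its 7 tested genes, 4 were called higher and 1 lower from Hox-WT to URE-AML. From Hox-URE to URE-AML, 2 were higher (*Gpi1* and *Pfkm*) and 2 lower (*Pfkp* and *Aldoc*). The gene with the largest rise in CPM was *Gpi1*, glucose-6-phosphate isomerase (chr7:34201330-34230336). Much of the larger sum came from *Gpi1*, whose mean was 3359 CPM for URE-AML, 1210 for Hox-WT and 1117 for Hox-URE. *Gpi1* stood at 1171, 1208 and 1250 CPM in Hox-WT, at 966, 1193 and 1191 in Hox-URE, and at 2588, 3602 and 3888 in URE-AML. All URE-AML libraries exceeded those of the Hox lines, which overlapped. The rise was 2.78-fold relative to Hox-WT (log2 1.47 ± 0.16, adjusted p = 2.13e-05) and 3.01-fold relative to Hox-URE (log2 1.59 ± 0.16, adjusted p = 1.37e-05). A processed pseudogene, *Gpi-ps*, whose transcript matched that of *Gpi1* at 98.6% of 1432 aligned bases, had 482 to 792 counts in URE-AML and 3 to 9 in the Hox lines, which is 0.747 to 0.867% of the counts of both rows in URE-AML, and adding it changed the log2 differences to 1.49 and 1.60.

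Phosphofructokinase, the committing step of glycolysis, has a liver-type (*Pfkl*), a muscle-type (*Pfkm*) and a platelet-type (*Pfkp*) subunit. *Pfkp* (chr13:6579768-6648777) stood at 181, 141 and 162 CPM in Hox-WT, at 442, 405 and 407 in Hox-URE, and at 255, 251 and 268 in URE-AML. The 3 lines did not overlap, with Hox-URE highest and Hox-WT lowest. It rose 2.59-fold in Hox-URE (log2 1.37 ± 0.10, adjusted p = 2.63e-06) and 1.60-fold in URE-AML (log2 0.68 ± 0.10, adjusted p = 0.000226) relative to Hox-WT, and was 1.62-fold lower in URE-AML than it was in Hox-URE (log2 -0.70 ± 0.10, adjusted p = 0.000194). The stricter test ended both *Pfkp* calls that involve URE-AML (adjusted p = 0.176 and 0.136).

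*Pfkm* stood at 35.5, 40.3 and 42.8 CPM in Hox-WT, at 24.0, 29.4 and 33.2 in Hox-URE, and at 57.6, 64.2 and 80.6 in URE-AML, again without overlap but with URE-AML highest and Hox-URE lowest. It rose 1.71-fold in URE-AML relative to Hox-WT (log2 0.77 ± 0.15, adjusted p = 0.00162; 0.115 and no longer called in the stricter test) and 2.34-fold relative to Hox-URE (log2 1.23 ± 0.16, adjusted p = 8.7e-05), while the log2 difference of -0.45 ± 0.16 between Hox-URE and Hox-WT was not called. *Pfkm* lies on chromosome 15, whose 511 tested genes had a median log2 difference of 0.33 between the Hox lines, 0.00 in URE-AML relative to Hox-WT and -0.39 in URE-AML relative to Hox-URE, each opposite in sign to that of *Pfkm* or at 0. *Pfkl* stood at 111, 120 and 136 CPM in Hox-WT, at 156, 186 and 202 in Hox-URE, and at 205, 220 and 207 in URE-AML, without overlap. It rose 1.73-fold in URE-AML relative to Hox-WT (log2 0.79 ± 0.11, adjusted p = 0.000178). Between the Hox lines its fold of 1.48 (log2 0.57 ± 0.11, adjusted p = 0.00179) missed the threshold, which it passed without Hox-WT library 3 (0.64) or Hox-URE library 1 (0.66).

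The share of *Pfkp* in the 3 subunits, per kilobase, was 51.1% ± 4.70 in Hox-WT, 67.9% ± 3.91 in the Hox-URE and 49.3% ± 1.16 in the URE-AML line. That of *Pfkm* was 12.9% ± 1.37, 4.82% ± 0.713 and 13.2% ± 1.83, and that of *Pfkl* 36.0% ± 3.38, 27.3% ± 3.20 and 37.4% ± 1.93. *Pfkp* thus led in each line with the mean coding transcript, but with the longest transcript, which is 8.68 kb for *Pfkp*, *Pfkl* led by the line means, at 50.3%, 45.4% and 51.6%. Under both lengths the share of *Pfkp* was highest in Hox-URE, where its lowest library exceeded the highest of the other lines.

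Among the remaining enzymes of upper glycolysis, *Aldoa*, the main aldolase, and *Tpi1*, triosephosphate isomerase, were not called. *Aldoa* averaged 2005 ± 139 CPM in Hox-WT, 1784 ± 110 in the Hox-URE and 2287 ± 136 in the URE-AML line, and *Tpi1* 802 ± 84.5, 708 ± 96.0 and 1010 ± 128. *Tpi1* in URE-AML relative to Hox-URE had a log2 difference of 0.51 ± 0.14 (adjusted p = 0.008) and passed the fold threshold without Hox-URE library 3 (0.62) or with library size only (0.62). *Aldoc*, the brain-type aldolase, was low and uneven: it stood at 0.712, 3.43 and 3.18 CPM in Hox-WT, at 0.364, 3.40 and 3.32 in Hox-URE, and at 0.283, 0.143 and 0.386 in URE-AML. Library 1 was low in each Hox line, and that of Hox-URE overlapped with URE-AML. It was called lower in URE-AML relative to Hox-WT (log2 -3.14 ± 0.89, adjusted p = 0.0115) and relative to Hox-URE (log2 -3.08 ± 0.89, adjusted p = 0.013), but it made at most 0.0936% of aldolase counts per kilobase in any library.

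Fructose 2,6-bisphosphate, the strongest activator of phosphofructokinase, is made and removed by enzymes of the *Pfkfb* family. *Pfkfb4* stood at 3.94, 4.71 and 3.87 CPM in Hox-WT, at 2.29, 3.69 and 3.88 in Hox-URE, and at 7.35, 15.4 and 15.1 in URE-AML, whose libraries were all the highest although library 1 was far below the others. It rose 3.01-fold relative to Hox-WT (log2 1.59 ± 0.30, adjusted p = 0.00112) and 3.85-fold relative to Hox-URE (log2 1.94 ± 0.31, adjusted p = 0.000373). *Pfkfb3*, an isozyme with high kinase activity, stood at 83, 84.8 and 77.7 CPM in Hox-WT, at 77.7, 55.7 and 46.9 in Hox-URE, and at 48.2, 68.2 and 65.1 in URE-AML, and was not called. Without Hox-URE library 1, *Pfkfb3* was called lower in Hox-URE (log2 -0.68). The share of *Pfkfb4* per kilobase was 4.18% ± 0.329 in Hox-WT, 4.82% ± 2.13 in the Hox-URE and 14.8% ± 2.79 in the URE-AML line.

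Transcripts of lower glycolysis were abundant, with a summed level, as listed, of 11769 ± 836 CPM in Hox-WT, 12591 ± 1084 in the Hox-URE and 12234 ± 910 in the URE-AML line. With the copies of *Eno1*, described below, the sums were 11775 ± 837, 12595 ± 1083 and 15981 ± 1226 CPM in the same order, so that URE-AML was then the highest. Per kilobase, *Gapdh* led with 5488, 4864 and 5635 CPM per kb in the order Hox-WT, Hox-URE, URE-AML. *Gapdh*, a common reference gene, was not called, with log2 differences of -0.17 ± 0.11, 0.04 ± 0.11 and 0.21 ± 0.11 in the 3 comparisons. Its level is uncertain, since 41 rows shared most of its sequence and took 19.6 to 22.7% of the joint counts. *Pgk1* averaged 951 ± 99.0, 1235 ± 27.8 and 1277 ± 39.3 CPM and *Pgam1* 982 ± 49.2, 978 ± 27.1 and 695 ± 24.5 CPM in the same order. Neither passed the fold threshold, although *Pgam1* in URE-AML had an adjusted p of 0.000525 relative to Hox-WT (log2 -0.50 ± 0.08) and *Pgk1* in Hox-URE one of 0.00822 (log2 0.38 ± 0.10).

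*Pkm* encodes the pyruvate kinase of most tissues, with M1 and M2 forms that a gene-level count does not separate (chr9:59656368-59679375). It stood at 1313, 1449 and 1771 CPM in Hox-WT, at 2158, 3134 and 3182 in Hox-URE, and at 3702, 2978 and 3358 in URE-AML. All Hox-WT libraries lay below all others. *Pkm* rose 1.87-fold in Hox-URE (log2 0.90 ± 0.17, adjusted p = 0.00155) and 2.21-fold in URE-AML (log2 1.15 ± 0.17, adjusted p = 0.000266), with a log2 difference of 0.24 ± 0.17 between the latter lines (adjusted p = 0.251). In the stricter test the *Pkm* call between the Hox lines was lost (adjusted p = 0.0521).

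*Eno1*, the enolase of most tissues (chr4:150236721-150248879), stood at 2810, 2852 and 3391 CPM in Hox-WT, at 2807, 2735 and 3006 in Hox-URE, and at 1482, 1260 and 1658 in URE-AML. All URE-AML libraries were the lowest, and the Hox lines overlapped. As listed it was 2.06-fold lower in URE-AML than it was in Hox-WT (log2 -1.04 ± 0.13, adjusted p = 6.04e-05) and 1.94-fold lower than in Hox-URE (log2 -0.96 ± 0.13, adjusted p = 0.000112). This call depended on how counts were divided among near-identical rows. *Eno1b*, a protein-coding copy whose transcript matched that of *Eno1* at 99.5% of 1652 aligned bases (9 differed), had 10 to 113 counts in Hox-WT, 0 to 18 in the Hox-URE and 66480 to 91709 in the URE-AML line. The pseudogene *Gm4735* (99.6% of 1302 bases) had 0 to 202 counts in the Hox lines and 3718 to 5665 in URE-AML. In URE-AML the copies held 71.5 to 72.6% of the joint counts, against 0.139 to 0.218% in the Hox lines.

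With the 3 rows of *Eno1*, *Eno1b* and *Gm4735* added, the level was 2816, 2856 and 3398 CPM in Hox-WT, 2812, 2740 and 3010 in Hox-URE, and 5202, 4600 and 5837 in URE-AML. The joint *Eno1* level was higher in URE-AML by log2 0.79 ± 0.12 relative to Hox-WT (adjusted p = 0.000331) and by 0.87 ± 0.12 relative to Hox-URE (adjusted p = 0.000175), so that the direction turned. This alternative was chosen after the counts of *Eno1b* were seen. Whether the reads in URE-AML came from *Eno1* or from *Eno1b* was not tested. *Eno2*, the neuronal enolase, was at 0 counts in Hox-WT and URE-AML, which allows up to 0.104 to 0.143 CPM in a library, and at 1 to 3 counts in Hox-URE.

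**Figure D4:**
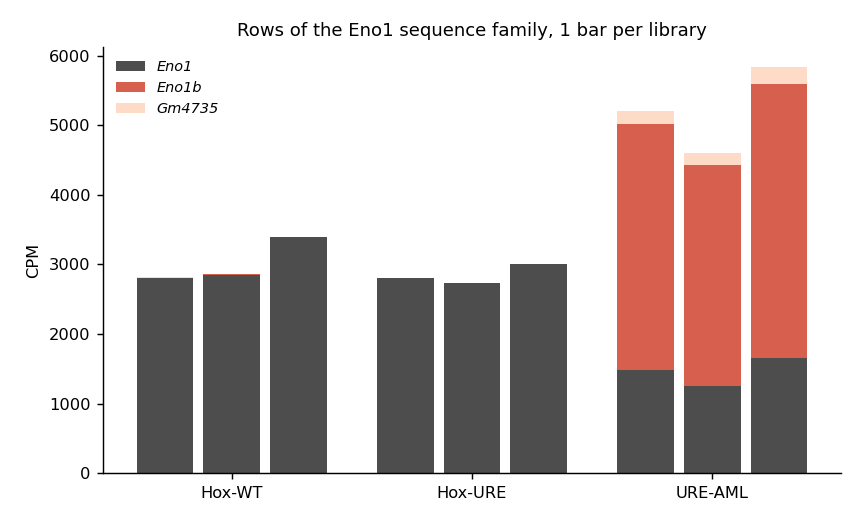
Stacked CPM of the *Eno1* row and its near-identical rows *Eno1b* and *Gm4735*, with 1 bar per library. The *Eno1* segment is lower in URE-AML (1260 to 1658 CPM) than in the Hox lines, and the whole bar is higher (4600 to 5837 CPM), so the direction depends on whether the copies are added.

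Transcripts for lactate formation and export, nearly all of them *Ldha*, summed to 2002 ± 113 CPM in URE-AML, 1414 ± 116 in Hox-WT and 1252 ± 159 in Hox-URE. *Ldha*, the lactate dehydrogenase subunit that favors lactate formation, stood at 1394, 1195 and 1371 CPM in Hox-WT, at 1311, 1072 and 1010 in Hox-URE, and at 2005, 1831 and 1821 in URE-AML. All URE-AML libraries were the highest, and the Hox lines overlapped. It rose 1.67-fold relative to Hox-URE (log2 0.74 ± 0.12, adjusted p = 0.000446; lost in the stricter test, at 0.108), while the 1.43-fold difference from Hox-WT (log2 0.51 ± 0.12, adjusted p = 0.0041) did not pass the fold threshold. *Ldhb*, the heart-type subunit, had 0 counts in all 6 Hox libraries and 22, 24 and 30 counts in URE-AML (0.889, 1.14 and 1.29 CPM). With a floor of 3 counts per library, the URE-AML level was at least 10.3-fold higher than that of Hox-WT (adjusted p = 0.000294) and at least 8.6-fold higher than that of Hox-URE (adjusted p = 0.000372). It nevertheless made only 0.0684% ± 0.0156 of the lactate dehydrogenase counts per kilobase in URE-AML.

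*Slc16a3* encodes MCT4, a transporter of lactate out of cells, and *Slc16a1* encodes MCT1, which moves lactate and pyruvate in both directions. *Slc16a3* stood at 16.1, 16.8 and 13.4 CPM in Hox-WT, at 24.3, 16.7 and 18.2 in Hox-URE, and at 20.0, 39.7 and 38.2 in URE-AML. URE-AML library 1 fell within the range of Hox-URE. The rise of 2.11-fold relative to Hox-WT (log2 1.08 ± 0.25, adjusted p = 0.0038) was called in every alternative. That of 1.65-fold relative to Hox-URE (log2 0.72 ± 0.25, adjusted p = 0.0286) was lost in 7 of 21, at log2 values of 0.62 without Hox-URE library 2, 0.67 without Hox-URE library 3, 0.56 without URE-AML library 2 and 0.59 without URE-AML library 3. With the replicate number as a block it was also lost (log2 0.70, adjusted p = 0.0539), as in the stricter test (adjusted p = 0.304). *Slc16a1* averaged 78.5 ± 9.34 CPM in Hox-WT, 101 ± 5.06 in the Hox-URE and 82.8 ± 21.3 in the URE-AML line and was not called. The share of *Slc16a3* per kilobase was 31.7% ± 3.76 and 31.4% ± 5.30 in the Hox lines and 47.8% ± 15.1 in URE-AML, where it ranged from 30.5 to 58.4%. Without URE-AML library 1, *Slc16a3* led over *Slc16a1* there by the line mean.

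The genes of pyruvate entry into mitochondria included the one with the largest fold change of the 37 between the Hox lines. *Pdk1* encodes a kinase that shuts off the pyruvate dehydrogenase complex and is known as a target of hypoxia-inducible factor (chr2:71873224-71903858; promoter shown above). It stood at 76.5, 73.7 and 74.5 CPM in Hox-WT, at 7.90, 4.93 and 7.92 in Hox-URE, and at 47.2, 44.2 and 31.5 in URE-AML. The 3 lines did not overlap, with Hox-URE lowest and Hox-WT highest. *Pdk1* fell 10.8-fold in Hox-URE (log2 -3.44 ± 0.21, adjusted p = 6.37e-07) and 1.83-fold in URE-AML (log2 -0.87 ± 0.19, adjusted p = 0.00233) relative to Hox-WT, and was 5.93-fold higher in URE-AML than it was in Hox-URE (log2 2.57 ± 0.20, adjusted p = 2.68e-06). Of the *Pdk1* calls, that of URE-AML relative to Hox-WT was lost in the stricter test (adjusted p = 0.068).

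*Pdha1*, the catalytic E1 alpha subunit that *Pdk1* acts on, stood at 311, 335 and 312 CPM in Hox-WT, at 205, 201 and 180 in Hox-URE, and at 204, 209 and 196 in URE-AML. Hox-WT lay above both other lines, which overlapped. It fell 1.63-fold in Hox-URE (log2 -0.71 ± 0.08, adjusted p = 6.38e-05) and 1.57-fold in URE-AML (log2 -0.65 ± 0.08, adjusted p = 7.73e-05). Both *Pdha1* calls were lost under the stricter test, with adjusted p of 0.0908 and 0.201.

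Of 11 tested further genes of pyruvate entry, 3 were called higher and 0 lower between the Hox lines, 3 and 2 from Hox-WT to URE-AML, and 3 and 1 from Hox-URE to URE-AML, with median log2 differences of -0.15, 0.15 and 0.32. Of all genes tested, 21.3 and 15.9%, 23.0 and 20.2%, and 20.3 and 22.4% were called higher and lower in these comparisons. *Pdp1*, a phosphatase that reverses the action of the kinases, rose from 6.27 ± 0.797 CPM in Hox-WT up to 32.1 ± 2.41 in Hox-URE (log2 2.35 ± 0.18, adjusted p = 3.72e-06) and 30.8 ± 7.64 in URE-AML (log2 2.30 ± 0.18, adjusted p = 2.62e-06). *Pcx*, pyruvate carboxylase, which makes oxaloacetate from pyruvate, rose between the Hox lines (log2 3.23 ± 0.39, adjusted p = 8.03e-05), at 16.6, 42.5 and 60.5 CPM against 3.67 to 4.57 in Hox-WT and 3.88 to 4.42 in URE-AML. Both subunits of the mitochondrial pyruvate carrier were highest in URE-AML. *Mpc1* averaged 99.1 ± 5.93, 131 ± 15.7 and 276 ± 24.5 CPM in the order Hox-WT, Hox-URE, URE-AML, and *Mpc2* 33.7 ± 2.49, 50.7 ± 6.90 and 144 ± 16.9. *Mpc2* was called higher in each of the 3 comparisons (log2 0.59 ± 0.13, 2.09 ± 0.13 and 1.51 ± 0.13), and *Mpc1* in those of URE-AML (log2 1.48 ± 0.11 relative to Hox-WT and 1.07 ± 0.11 relative to Hox-URE). The *Mpc2* difference between the Hox lines lay at the fold threshold. The kinase gene *Pdk3* (log2 -0.82 ± 0.11) and the phosphatase gene *Pdp2* (log2 -0.82 ± 0.12) were lower in URE-AML than their Hox-WT levels.

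**Figure D5:**
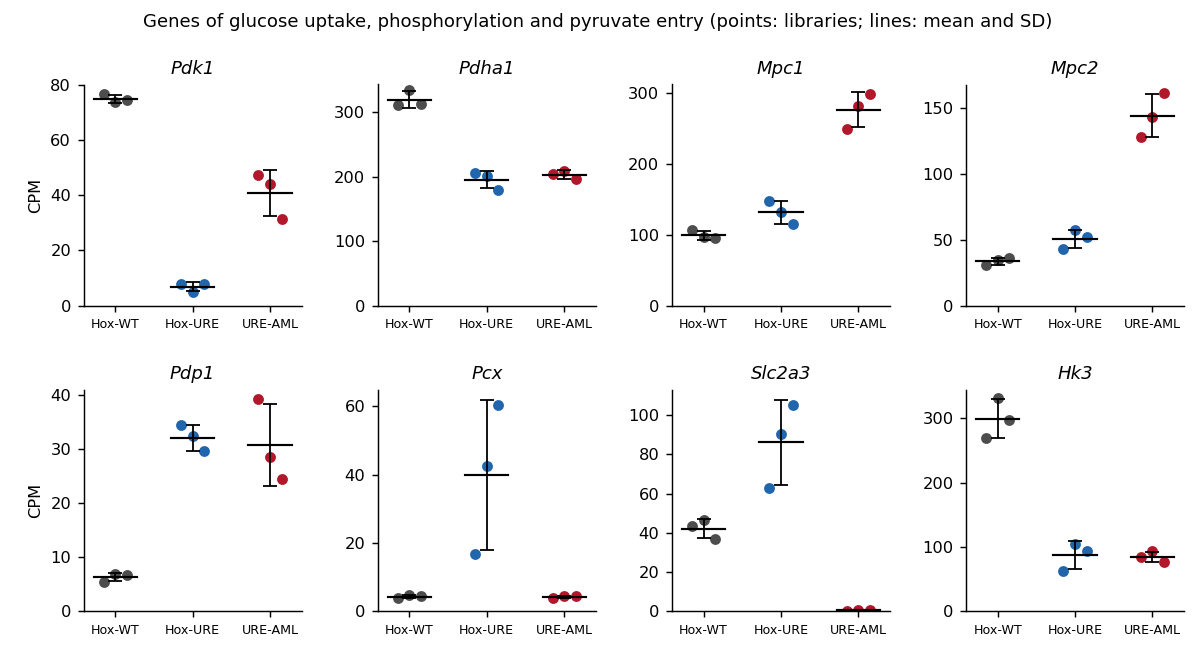
CPM per library of genes of glucose uptake and phosphorylation (*Slc2a3*, *Hk3*) and of pyruvate entry, with linear axes from 0; lines give the mean and SD of 3 libraries. *Pdk1* is lowest and *Pcx* highest in Hox-URE, *Mpc1* and *Mpc2* are highest in URE-AML, and *Hk3* and *Pdha1* are highest in Hox-WT.

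Transcripts of the pentose phosphate pathway summed to 3481 ± 507 CPM in URE-AML, against 2256 ± 189 in Hox-WT and 2581 ± 121 in Hox-URE. *G6pdx*, glucose-6-phosphate dehydrogenase, the rate-limiting enzyme and first source of NADPH in the pathway (chrX:74409483-74429194; promoter shown above), stood at 118, 136 and 149 CPM in Hox-WT, at 294, 306 and 281 in Hox-URE, and at 353, 384 and 413 in URE-AML. The 3 lines did not overlap. *G6pdx* rose 2.19-fold in Hox-URE (log2 1.13 ± 0.11, adjusted p = 1.29e-05) and 2.85-fold in URE-AML (log2 1.51 ± 0.11, adjusted p = 1.03e-06) relative to Hox-WT. Between URE-AML and Hox-URE the 1.30-fold difference did not pass the fold threshold (log2 0.38 ± 0.10, adjusted p = 0.00934).

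*Pgd*, 6-phosphogluconate dehydrogenase and the second source of NADPH, stood at 661, 683 and 726 CPM in Hox-WT, at 984, 1020 and 1090 in Hox-URE, and at 851, 812 and 954 in URE-AML, without overlap and with Hox-URE highest. Its fold of 1.49 between the Hox lines (log2 0.58 ± 0.10, adjusted p = 0.000586) lay at the threshold and was called in 6 of 21 alternatives, among them without Hox-WT library 3 and without Hox-URE library 1 (0.60 each). *Taldo1*, transaldolase, stood at 218, 239 and 247 CPM in Hox-WT, at 295, 322 and 359 in Hox-URE, and at 413, 436 and 554 in URE-AML, without overlap. It rose 1.99-fold in URE-AML relative to Hox-WT (log2 1.00 ± 0.13, adjusted p = 7.91e-05). In URE-AML relative to Hox-URE the *Taldo1* difference of log2 0.52 ± 0.13 was called without Hox-URE library 3 (0.60), without URE-AML library 1 (0.61) and with library size only (0.64).

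*Tkt*, transketolase, which links the pathway back to glycolysis, stood at 1078, 1183 and 1331 CPM in Hox-WT, at 895, 920 and 979 in Hox-URE, and at 1486, 1651 and 2136 in URE-AML, again without overlap but with Hox-URE lowest. It rose 1.89-fold in URE-AML relative to Hox-URE (log2 0.92 ± 0.14, adjusted p = 0.000311). Against Hox-WT the *Tkt* fold of 1.47 (log2 0.55 ± 0.14, adjusted p = 0.00671) missed the threshold, which it passed without Hox-WT library 3 (0.62), URE-AML library 1 (0.66) or URE-AML library 2 (0.60). Of 6 tested further genes of the pathway, 1 was called higher and 0 lower between the Hox lines, 2 and 0 from Hox-WT to URE-AML, and 1 and 1 from Hox-URE to URE-AML, with median log2 differences of 0.00, 0.31 and -0.12, where 21.3 and 15.9%, 23.0 and 20.2%, and 20.3 and 22.4% of all genes were called higher and lower. *H6pd*, the dehydrogenase of the endoplasmic reticulum, averaged 75.5 ± 5.85, 288 ± 39.5 and 145 ± 11.1 CPM in the order Hox-WT, Hox-URE, URE-AML, and *Rpia*, ribose 5-phosphate isomerase, 125 ± 14.5, 102 ± 27.0 and 269 ± 31.8. *H6pd* was called higher in Hox-URE and in URE-AML than it was in Hox-WT, and *Rpia* in URE-AML against either Hox line.

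Of the TCA cycle's 7 genes, 0 were called between the Hox lines (37.2% of all genes), 1 (*Mdh2*) was higher from Hox-WT to URE-AML (43.2% of all genes called, 23.0% higher), and 2 (*Mdh2* and *Idh3a*) were higher in URE-AML relative to Hox-URE (42.7% called, 20.3% higher). Between the Hox lines, 3 of the 7, namely *Fh1*, *Suclg1* and *Idh3a*, had an adjusted p under the threshold with folds of 1.35, 1.33 and 1.28, all toward lower levels. The summed level was 2176 ± 70.1 CPM in Hox-WT, 1996 ± 35.7 in the Hox-URE and 2460 ± 83.4 in the URE-AML line. *Mdh2*, the mitochondrial malate dehydrogenase, stood at 515, 532 and 587 CPM in Hox-WT, at 500, 453 and 459 in Hox-URE, and at 868, 843 and 950 in URE-AML, without overlap. It rose 1.63-fold in URE-AML relative to Hox-WT (log2 0.70 ± 0.09, adjusted p = 0.000106) and 1.88-fold relative to Hox-URE (log2 0.91 ± 0.09, adjusted p = 1.84e-05), and the stricter test ended the first of these *Mdh2* calls (adjusted p = 0.104). *Mdh2* lies on chromosome 5, whose 828 tested genes had medians of 0.18 and 0.23 in these comparisons.

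*Mdh1*, the cytosolic form, stood at 171, 219 and 223 CPM in Hox-WT, at 193, 295 and 308 in Hox-URE, and at 197, 208 and 213 in URE-AML, and was not called. *Mdh2* made 80.4% ± 1.68 of malate dehydrogenase counts per kilobase in Hox-WT, 73.2% ± 5.75 in the Hox-URE and 86.9% ± 0.587 in the URE-AML line. *Idh3a*, the catalytic subunit of NAD-dependent isocitrate dehydrogenase, stood at 243, 190 and 207 CPM in Hox-WT, at 184, 162 and 153 in Hox-URE, and at 260, 239 and 254 in URE-AML. Hox-URE lay below both other lines, which overlapped. Its 1.51-fold rise relative to Hox-URE (log2 0.59 ± 0.11, adjusted p = 0.00106) lay at the threshold and was lost in 6 of 21 alternatives, including those leaving out Hox-URE library 2 (0.57) or 3 (0.53) or URE-AML library 1 (0.57), and the stricter test (adjusted p = 0.501).

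Citrate synthase (*Cs*) averaged 491 ± 20.0 CPM in Hox-WT, 449 ± 3.59 in the Hox-URE and 366 ± 17.3 in the URE-AML line, and *Ogdh*, a subunit of the 2-oxoglutarate dehydrogenase complex, 332 ± 25.3, 354 ± 27.7 and 442 ± 17.8. Fumarate hydratase (*Fh1*) averaged 227 ± 9.17, 168 ± 7.63 and 177 ± 13.5 CPM, and *Suclg1*, a subunit of succinate-CoA ligase, 164 ± 4.28, 124 ± 8.93 and 131 ± 4.27. These 4 genes stayed within a fold of 1.5 in every comparison. Of 19 further TCA and linked genes, all tested, 4 were called higher and 3 lower between the Hox lines, 4 and 4 from Hox-WT to URE-AML, and 3 and 3 from Hox-URE to URE-AML, with median log2 differences of -0.25, -0.09 and 0.08, where 21.3 and 15.9%, 23.0 and 20.2%, and 20.3 and 22.4% of all genes were called higher and lower. *Idh2*, the mitochondrial NADP-dependent isocitrate dehydrogenase, fell from 289 ± 39.2 CPM in Hox-WT down to 96.2 ± 18.4 in Hox-URE (log2 -1.59 ± 0.15) and 60.5 ± 2.63 in URE-AML (log2 -2.26 ± 0.15). *Me1*, cytosolic malic enzyme, had 1 to 8 counts in the Hox lines and 73 to 94 in URE-AML (log2 4.75 ± 0.54 relative to Hox-WT).

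Of 27 further genes of glycolysis and gluconeogenesis, 14 were tested. Of these, 5 were called higher and 2 lower between the Hox lines, 5 and 2 from Hox-WT to URE-AML, and 4 and 4 from Hox-URE to URE-AML, with median log2 differences of -0.06, 0.21 and 0.26, where 21.3 and 15.9%, 23.0 and 20.2%, and 20.3 and 22.4% of all genes were called higher and lower. *Fbp1*, fructose-1,6-bisphosphatase, which runs the phosphofructokinase step in reverse, had 4 to 8 counts in the Hox lines and 326 to 390 in URE-AML (log2 6.04 ± 0.23 relative to Hox-WT, adjusted p = 1.35e-08, and 6.24 ± 0.24 relative to Hox-URE, adjusted p = 1.58e-08). *Slc2a6*, another transporter of the family of *Slc2a1*, averaged 12.1 ± 1.58 CPM in Hox-WT, 81.6 ± 10.4 in the Hox-URE and 7.01 ± 1.28 in the URE-AML line and was called in each comparison (log2 2.75 ± 0.16, -0.79 ± 0.16 and -3.54 ± 0.17). *Eno3*, the muscle enolase, averaged 0.799 ± 0.252, 6.08 ± 0.731 and 7.03 ± 1.46 CPM and rose in both lines relative to Hox-WT. *Slc16a7*, a monocarboxylate transporter, had 40 to 52 counts in Hox-WT, 0 in each Hox-URE library and 0, 11 and 1 in URE-AML.

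As gene groups that often move with glycolysis, hypoxia-inducible genes outside the pathway and proliferation genes were counted in the same fit. Of 14 tested hypoxia-inducible genes, 3 were called higher and 3 lower between the Hox lines, 7 and 3 from Hox-WT to URE-AML, and 6 and 3 from Hox-URE to URE-AML, with median log2 differences of -0.01, 0.57 and 0.51. The shares of all genes called higher and lower were 21.3 and 15.9%, 23.0 and 20.2%, and 20.3 and 22.4%. *Bnip3*, a mitophagy receptor, averaged 26.7 ± 0.916 CPM in Hox-WT, 13.4 ± 1.43 in the Hox-URE and 42.5 ± 11.7 in the URE-AML line and was, like *Pdk1*, lower in Hox-URE than in either other line (log2 -1.0 ± 0.19 relative to Hox-WT; URE-AML relative to Hox-URE 1.67 ± 0.19). *Ero1l*, an oxidase of the endoplasmic reticulum, moved the other way in Hox-URE (277 ± 41.1, 1295 ± 221 and 667 ± 107 CPM; log2 2.22 ± 0.17 relative to Hox-WT). *Car9*, carbonic anhydrase 9, had 184 to 306 counts in the Hox lines and 0 in URE-AML. Of 15 proliferation genes, 1 was called higher and 3 lower between the Hox lines, 2 and 4 from Hox-WT to URE-AML, and 4 and 2 from Hox-URE to URE-AML, with median log2 differences of -0.29, -0.13 and 0.10, beside the same shares of all genes. These lists were read as counts only, and their part in the changes of the 37 genes was not tested.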

How the data were processed

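Each of the 3 lines gave 3 stranded poly-A libraries. Salmon (GRCm38, per the labels) and tximport were used by the authors, and the deposited values are estimated counts of genes, given in whole numbers that keep each library's own total. Tool versions, the transcriptome release and any length scaling are not given in the sources used here, so a change in transcript use or in the division of reads among near-identical genes may alter a count.

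Lines and library numbers came from the labels. Total counts were 20331064 to 28588718 per library, and the floor of 3 counts was 0.104 to 0.153 CPM, which covers counting error only. All 9 libraries were fitted with edgeR 4.0.16 (R 4.3.3; TMM, filterByExpr with a minimum count of 10, quasi-likelihood F tests, two-sided, Benjamini-Hochberg over 13082 genes); the genes put aside held 0.0499% of counts. The SE was taken from the log2 fold change and F (its size over the root of F). Isozyme shares and role sums were described without a test. Same-numbered libraries of Hox-URE and Hox-WT deviated together (r = 0.393, 0.216 and 0.294), while libraries of unlike number were not compared. The main fit was unpaired, and the library number entered only as a block in an alternative. For experiments that took several days, the paper states that each day held replicates of every condition. It does not tie this to the library numbers.

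Lengths were means of coding transcripts in GENCODE M21 (GRCm38), where all 38 rows were found. Copies were rows that shared at least 50% of 31-base words with a gene, and identities came from Biopython 1.88. Promoters came from RefSeq. Alternatives were other scalings, filters and thresholds, DESeq2 1.42.0, the block, added copies, another transcript length and leaving out each library.

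The genes, lists and naming rule were chosen with earlier results of these data known. All 37 genes could be named, and from each further list at most 3 called genes per direction and comparison, by size of change, with *Spi1*, *Hoxb8* and the cell type markers.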

Additional observations from a re-analysis of the deposited data

How the results depend on the processing

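Of 39 called results of the 37 genes over the 3 comparisons, 25 kept their call in all 21 alternatives in which they were tested. The other 14 lost it in some, while 29 of 69 uncalled results were called in some. Some uncalled differences near 0 changed sign. The direction of a called result turned only for *Eno1*, with all copies added (0.79 relative to Hox-WT and 0.87 relative to Hox-URE, log2). With pseudogene copies alone no call changed. Without the fold threshold, 17, 28 and 22 genes were called in Hox-URE relative to Hox-WT, URE-AML relative to Hox-WT and URE-AML relative to Hox-URE (9, 18 and 16 higher; 8, 10 and 6 lower), and 34, 33 and 32 genes of the further pathway lists in place of 18, 22 and 20. A test against a fold of 1.5 left 5, 12 and 10 genes (3, 8 and 7 higher), and 11 list genes in Hox-URE relative to Hox-WT. Requiring 10 counts in every library left 2 genes lower in URE-AML relative to Hox-URE, since fewer genes were tested. Leaving out each library gave 7 to 10, 17 to 19 and 13 to 15 called genes (15 to 21, 20 to 23 and 19 to 20 list genes), and DESeq2 gave 8, 18 and 15. Scaling by library size only moved the median of all genes in the 3 comparisons to -0.08, 0.01 and 0.11 and that of the tested rows to -0.21, 0.34 and 0.34; between the Hox lines, 2502 genes were then higher and 2545 lower, in place of 2789 and 2084. With the longest transcript as the length, 0 of 9 isozyme sets differed between lines in their leading member, in place of 1 (the glucose transporters); leaving out each library gave 0 to 2, with 0 without Hox-URE library 2 or 3 and 2 without URE-AML library 1. With the replicate block, 7, 17 and 14 genes were called; the call of *Slc16a3* in URE-AML relative to Hox-URE was lost and no other call changed. Same-numbered libraries of URE-AML and either Hox line had r = 0.0583 to 0.188. *Eno2* and, in the Hox lines, *Ldhb* lay at or under the floor of 3 counts.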
